A study of Mus musculus with 8 samples.

Results

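The mitochondrial solute carriers are the proteins of the SLC25 family, most of which sit in the inner mitochondrial membrane and exchange nucleotides, metabolites, cofactors and ions between cytosol and matrix. All 47 genes whose symbol starts with Slc25a were taken from the files, out of 18790 named genes. Of these, 37 reached at least 1 CPM (the count scaled to the library total, the unit of the deposited table) in at least 4 of the 8 libraries and form the set described here. The libraries were made from femoral bone marrow of Csf1r-EGFP transgenic C57BL/6 mice that received no treatment, in which a promoter active in monocytes and macrophages drives a green fluorescent reporter. One sort, CD11b+, took CD11b+F4/80+Ly6G-GFPloVCAM1+ cells, while the CD11b- sort took CD11b-F4/80+GFP+VCAM1+ cells, with 4 biological replicates each and SmartSeq2 libraries, a full-length cDNA protocol for small amounts of RNA. F4/80 and VCAM1 are macrophage surface proteins, CD11b is a myeloid integrin and Ly6G a neutrophil antigen. The question named by the series title is whether such sorts hold macrophages or other cells that carry macrophage fragments. Whether a replicate is 1 mouse or a pool is not given in the sources used here.

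Counts on named genes totalled 36517568 to 47844998 per CD11b+ library and 27337092 to 34996595 per CD11b- library. Where a library shows 0 for a gene, levels up to 0.0627 to 0.110 CPM remain possible, depending on the library. This limit covers counting error alone, since molecules were not tagged. Summed levels of 15 erythroid marker genes were 773 to 1279 CPM per CD11b+ library and 32912 to 44090 CPM per CD11b- library. Those of 14 neutrophil and primary granule genes were 136218 to 157508 and 653 to 6912 CPM, and those of 7 eosinophil genes 6746 to 19384 and 68.3 to 470.1 CPM. For 14 resident macrophage genes they were 1155 to 1194 and 583 to 975 CPM, for 10 B progenitor genes 53.1 to 128.7 and 1133 to 2278 CPM, and for 12 cell cycle genes 5586 to 5976 and 15207 to 18514 CPM. Basophil and mast cell genes (7) summed to 1644 to 4547 and 257 to 4543 CPM, and megakaryocyte and platelet genes (6) to 48.5 to 88.2 and 73.9 to 122.4 CPM. No marker on these lists was at 0 in all libraries of either sort. All 15 erythroid, 8 of 8 tested B progenitor and 11 of 12 cell cycle genes were lower in CD11b+, and 13 of 14 granule and 5 of 7 eosinophil genes were higher, by edgeR's quasi-likelihood test. Of the 14 macrophage genes 4 were higher, 2 lower and 8 not called. Over the alternative fits described at the end, 3 to 4 were higher and 1 to 4 lower. Their median log2 fold change, CD11b+ over CD11b-, was -0.60, below 0 although their sum was higher in CD11b+. Of all genes tested, 14.6% were higher and 15.0% lower. The part of these cell types in the carrier differences below was not tested. In bulk libraries fewer cells of a type and less RNA per cell cannot be told apart.

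As background, carriers share a fold of 3 repeated membrane units, and each is specific to a small group of substrates. In red cell precursors the family is known for supplying heme synthesis, which begins and ends in mitochondria: mitoferrin 1 (Slc25a37) brings in iron and Slc25a38 brings in glycine. In every cell the ADP/ATP carriers, the phosphate carrier and the carriers of the malate-aspartate shuttle serve oxidative phosphorylation.

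The heme carriers Slc25a37 and Slc25a38 were far lower in CD11b+ than in CD11b-, as were the NAD+ carrier Slc25a51 and the coenzyme A carrier Slc25a42, while of the 5 adenine nucleotide and phosphate carriers only Slc25a4 passed the test, in the same direction. Of the 37 carriers 8 were lower in CD11b+ (Slc25a21, Slc25a37, Slc25a38, Slc25a42, Slc25a51, Slc25a39, Slc25a44 and Slc25a4) and 2 were higher (Slc25a12 and Slc25a20), at an adjusted p of 0.05 by edgeR. The remaining 27 were not called. The called share of 27.0% lay near the 29.7% of all 11965 genes tested, so the number of calls is not particular to the family. The shares of all genes given here cover those that passed edgeR's filter, not the level rule. With the level rule as filter, 1731 of 11023 genes were higher and 1820 lower, and of the carriers again 2 and 8. By direction, 21.6% of carriers were lower, beside 15.0% of all genes, and 5.41% higher, beside 14.6%. The lower ones include Slc25a21 and Slc25a42, which met the level rule only with their CD11b- libraries, where they are high. The median log2 fold change was 0.07 over the carriers and -0.01 over all genes. The 4 libraries of one sort all lay above the 4 of the other for 14 carriers (37.8%), beside 36.4% of all genes. Fold changes below are those fitted by edgeR, CD11b+ against CD11b-, and adjusted p-values are Benjamini-Hochberg values over all genes tested.

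**Figure D1:**
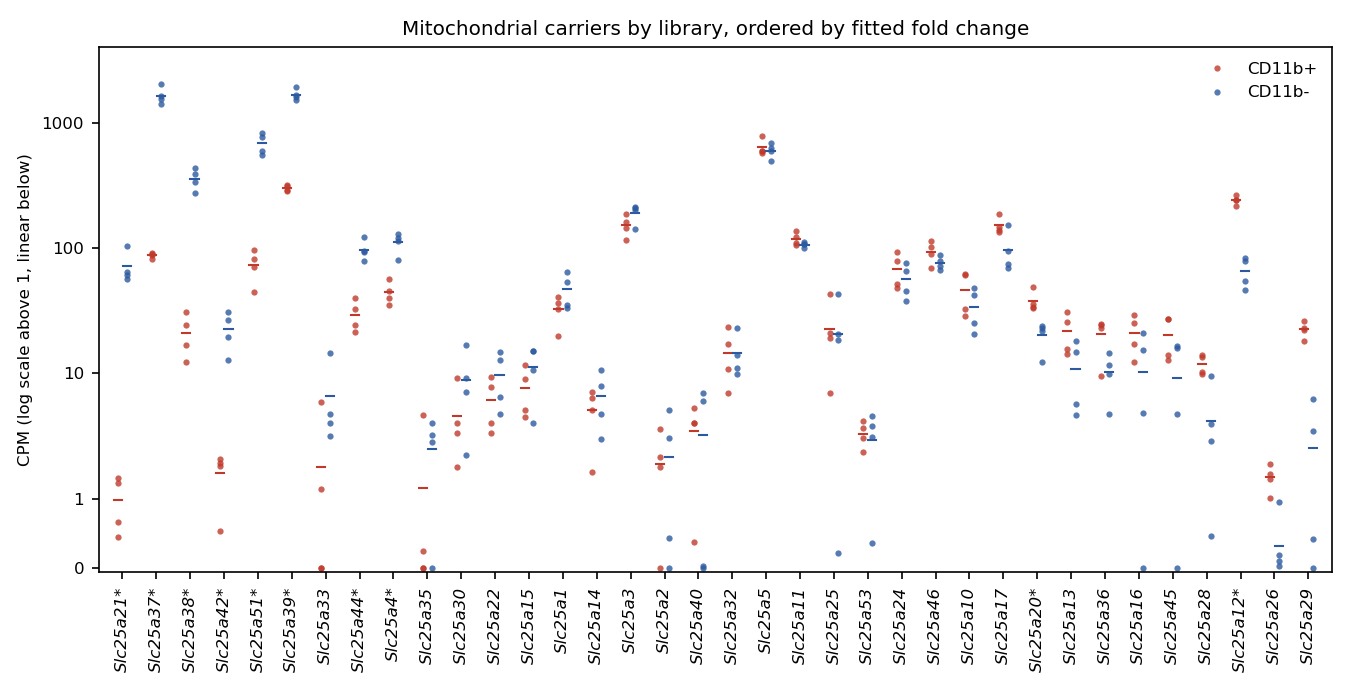
Level of 36 of the 37 carriers in every library, in CPM, on an axis that is logarithmic above 1 and linear below; points are libraries, short bars are group means and asterisks mark the 10 called genes. Slc25a37 and Slc25a39 lie at 1397 CPM or above in all CD11b- libraries, and the 4 CD11b+ points of Slc25a12 lie above the CD11b- points.

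The carriers that supply heme synthesis were far lower in CD11b+. Slc25a37, mitoferrin 1, the iron importer of red cell precursors, stood at 87.3, 90.1, 81.9 and 91.3 CPM in the CD11b+ libraries, replicates 1 to 4 in order. Its CD11b- libraries, in the same order as for all genes below, held 1623, 1529, 2016 and 1397 CPM. All CD11b- libraries were above all CD11b+ libraries, and the CD11b+ libraries lay close together. The gene was 18.4-fold lower in CD11b+ (log2 -4.20, SE 0.19, adjusted p = 1.35e-06). Slc25a38, the glycine carrier whose loss in humans causes sideroblastic anemia, had 31.0, 16.8, 12.3 and 24.1 CPM in the CD11b+ libraries against 335, 274, 430.3 and 386 CPM in the CD11b- ones. It was 16.6-fold lower in CD11b+ with no overlap (log2 -4.05, SE 0.32, adjusted p = 1.38e-05). Slc25a37 shares its locus with the noncoding genes Gm27222, Gm31748 and Gm31896 in RefSeq's annotation, and reads from them cannot be told apart without strand. Within CD11b+, replicate 1 had the highest and replicate 3 the lowest Slc25a38. The summed erythroid markers were also highest in CD11b+ replicate 1 and lowest in replicate 3. Slc25a37 was highest in replicate 4 and lowest in replicate 3, within 81.9 to 91.3 CPM. These are orders of 4 libraries seen after the fact, and their cause was not tested.

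Slc25a28, mitoferrin 2, the iron importer of most other cells, did not pass the test. Its CD11b+ libraries held 13.4, 9.82, 14.0 and 10.2 CPM and its CD11b- libraries 3.93, 9.50, 0.461 and 2.88 CPM. The groups did not overlap, but CD11b- replicate 2 came close to the CD11b+ libraries. The log2 fold change was 1.56 (95% interval -0.18 to 3.31, adjusted p = 0.173), and without CD11b- replicate 2 it was 2.38 and called (adjusted p = 0.0497, from 0.0469 to 0.297 over the alternatives). That library held the highest CD11b- value, so leaving it out raised the fold by construction. Per exon length, Slc25a37 made up 78.4% to 85.1% of mitoferrin transcript in CD11b+ libraries and 99.0% to 99.96% in CD11b- libraries. Mitoferrin 1 was thus the larger part in both sorts, with ranges that did not overlap.

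Slc25a39 imports glutathione into the matrix and is also needed for normal heme production. Levels were 283, 292, 309.6 and 315 CPM for CD11b+ against 1498, 1589, 1917 and 1655 CPM for CD11b-. The groups were far apart, and CD11b+ was 5.43-fold lower (log2 -2.44, SE 0.15, adjusted p = 3.95e-06). Its paralog Slc25a40, also a glutathione carrier, was low and scattered, with 4.02, 0.380, 4.03 and 5.33 CPM for CD11b+ and 0.0350, 0, 6.91 and 6.01 CPM for CD11b-. Its log2 fold change of 0.07 had a 95% interval from -3.65 to 3.79 (adjusted p = 0.983), so a difference of several fold either way was not detectable. Per exon length Slc25a39 was at least 99.4% of the pair in every library.

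The upstream sequences of these genes are shown because Slc25a38 and Slc25a39 differed together with the erythroid markers. RefSeq's promoter table (GRCm38.p6, another build than the mm9 of the submitters' processing notes) had 46 windows for 36 of the 47 genes. Slc25a37, Slc25a44 and Slc25a51 were not analysed here. Slc25a4, Slc25a21 and Slc25a42 have windows and were also lower in CD11b+, so the reason given does not single out Slc25a38 and Slc25a39. The windows of Slc25a4 and Slc25a21 are not printed, and shared control with the erythroid markers was not tested. The 250 bases before the start were searched on both strands for AGATAA, a form of the GATA motif, for CACCC, the core of the CACCC box, and for CCAAT, the CCAAT box. CACCC and CCAAT can share bases when one follows the other, and AGATAA can share a single end base with CCAAT. Below, these matches are in capitals, 5′ to 3′ along the gene.
Slc25a38, chr9:120110132-120110381, plus strand: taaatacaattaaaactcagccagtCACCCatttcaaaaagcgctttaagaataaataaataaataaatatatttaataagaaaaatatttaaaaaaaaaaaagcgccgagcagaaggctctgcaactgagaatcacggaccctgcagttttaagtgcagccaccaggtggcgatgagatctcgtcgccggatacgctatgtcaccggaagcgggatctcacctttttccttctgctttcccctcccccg
Slc25a39, chr11:102407518-102407767, minus strand: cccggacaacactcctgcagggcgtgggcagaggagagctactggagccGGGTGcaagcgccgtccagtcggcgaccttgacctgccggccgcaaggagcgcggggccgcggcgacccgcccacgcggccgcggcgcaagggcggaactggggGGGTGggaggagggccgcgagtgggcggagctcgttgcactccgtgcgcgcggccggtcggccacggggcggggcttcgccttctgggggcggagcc
Slc25a42, chr8:70212282-70212531, minus strand: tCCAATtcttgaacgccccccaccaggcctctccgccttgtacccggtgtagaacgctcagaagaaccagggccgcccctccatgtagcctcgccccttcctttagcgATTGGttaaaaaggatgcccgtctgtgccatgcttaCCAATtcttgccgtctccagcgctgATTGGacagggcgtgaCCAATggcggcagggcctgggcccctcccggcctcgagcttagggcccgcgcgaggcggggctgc
The Slc25a38 window holds 1 CACCC match and the Slc25a39 window 2. AGATAA is in neither, and CACCC is in 52.0% of all 32851 windows of this length, so neither match sets these genes apart. Among the windows of carriers, 58.7% held CACCC, 45.7% held CCAAT (33.9% of all windows) and 4.35% held AGATAA (9.99%). The window of Slc25a42 holds 5 CCAAT matches, the most among the 46 carrier windows. That number is reached or passed by 0.213% of all windows. This share holds for a window taken at random, not for the highest of 46, so it does not set Slc25a42 apart. These are matches of letters only.

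Of the adenine nucleotide and phosphate carriers, which serve the ATP synthase, 1 of 5 was called. Slc25a5, the ADP/ATP carrier ANT2 of dividing cells, had 590, 571, 596 and 781 CPM among CD11b+ libraries, close to the 623, 493, 590 and 684 CPM of the CD11b- ones. The sorts overlapped almost fully, and the log2 fold change of 0.12 had a 95% interval from -0.22 to 0.47 (adjusted p = 0.616). Mouse Slc25a5 has processed pseudogenes, and how reads that map more than once were counted is not given in the sources used here. Its paralog Slc25a4 (ANT1, the form of heart and muscle) was 2.42-fold lower in CD11b+ (log2 -1.27, SE 0.20, adjusted p = 0.000971), at 40.2, 45.6, 35.2 and 56.7 CPM against 130, 114, 79.5 and 121 CPM. Per exon length, Slc25a4 was 3.97% to 5.29% of the pair in CD11b+ and 8.62% to 13.9% in CD11b-, so Slc25a5 was the main form of the pair in both sorts.

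The phosphate carrier Slc25a3 averaged 152 ± 30.0 CPM for CD11b+ against 191 ± 33.2 CPM for CD11b- (SD, n = 4, adjusted p = 0.273). Of the calcium-regulated ATP-Mg/phosphate carriers, Slc25a24 was at 52.0, 92.5, 78.1 and 48.3 CPM against 76.0, 45.6, 65.9 and 37.9 CPM (log2 0.30, 95% interval -0.38 to 0.99). Its paralog Slc25a23 did not reach the level rule, with at most 0.584 CPM, so Slc25a24 made up at least 99.5% of that pair per exon length in every library. Slc25a25 ranged from 6.98 to 43.2 CPM over CD11b+ and from 0.215 to 43.1 CPM over CD11b- libraries, too wide a spread to read a difference (adjusted p = 0.909).

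**Figure D2:**
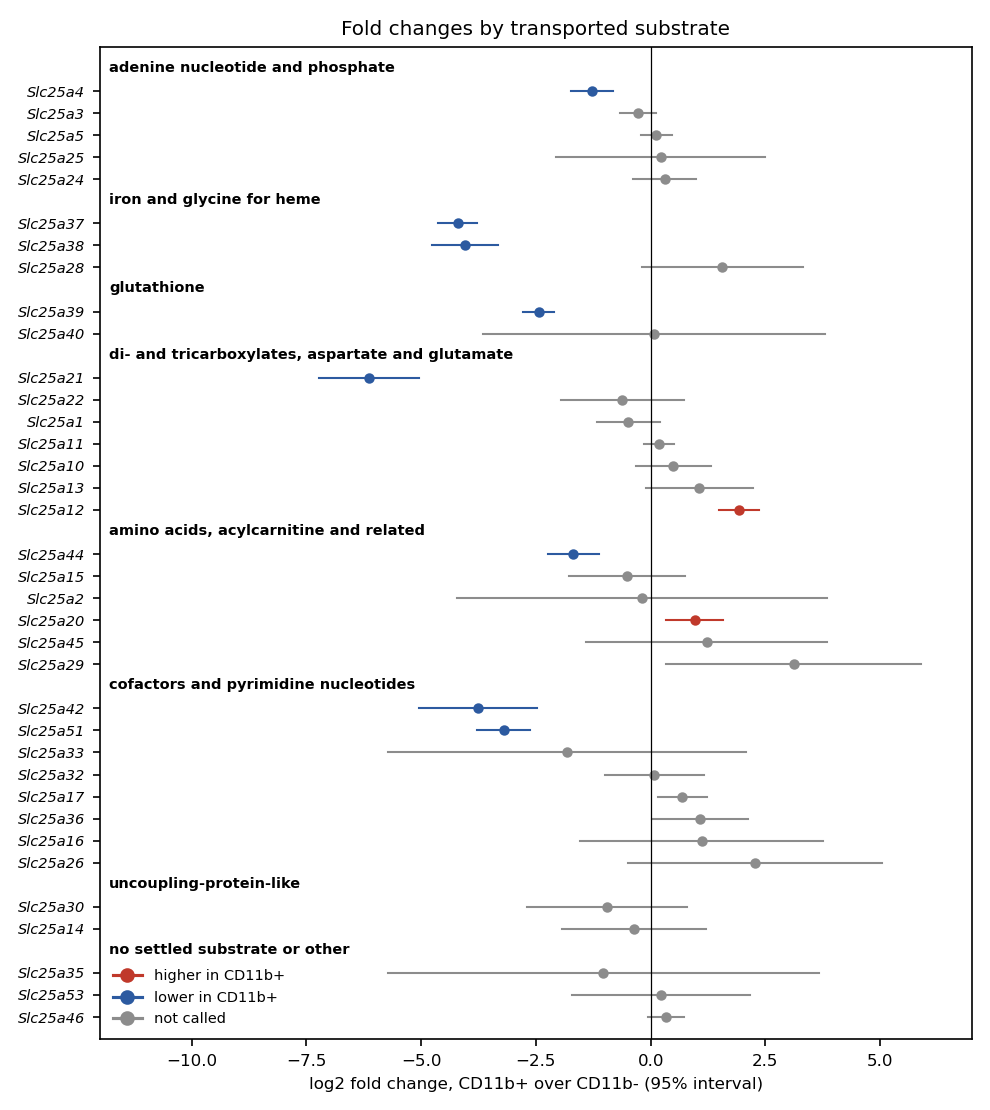
Fitted log2 fold change of 36 of the 37 carriers, CD11b+ over CD11b-, with its 95% interval, grouped by transported substrate; blue is lower and red is higher in CD11b+ by the test, grey is not called. The intervals of Slc25a37 and Slc25a38 lie wholly below -3, and that of Slc25a5 spans 0.

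Among carriers of di- and tricarboxylates, aspartate and glutamate, 1 of 7 was lower, 1 higher and 5 were not called. Their called share of 28.6% lay near the 29.7% of all genes. Slc25a21, the oxodicarboxylate carrier that moves 2-oxoadipate from lysine and tryptophan breakdown, had the lowest fold of the family. The CD11b+ libraries held 1.48, 0.456, 1.33 and 0.663 CPM of it, the CD11b- libraries 56.1, 64.3, 60.8 and 104.4 CPM. The gene was near the level rule's 1 CPM in every CD11b+ library and well above it in every CD11b- library, so it passed the rule through CD11b-. The difference was 70.3-fold (log2 -6.13, SE 0.48, adjusted p = 1.30e-05). The gene model of Slc25a21 overlaps those of Pax9 and the noncoding gene Gm30001, and SmartSeq2 does not mark strand. Pax9 itself had at most 4.59 CPM in any library, and Gm30001 has no level here, so its part is not known. Among other called carriers, Slc25a12 overlaps the pseudogene Gm13641, Slc25a39 the microRNA gene Mir6930 and Slc25a44 the noncoding gene Gm33513, also without levels here.

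Slc25a12, aralar, the aspartate/glutamate carrier of the malate-aspartate shuttle, went the other way. Its CD11b+ levels were 243, 217, 243 and 266 CPM, and its CD11b- levels 78.6, 45.8, 54.7 and 82.5 CPM. Every CD11b+ library was above every CD11b- library, a 3.82-fold difference (log2 1.93, SE 0.19, adjusted p = 5.48e-05). Citrin (Slc25a13), the paralog best known from liver, had 25.7, 15.7, 30.8 and 14.2 CPM for CD11b+ and 14.8, 17.9, 4.64 and 5.68 CPM for CD11b-. It overlapped between sorts (log2 1.06, 95% interval -0.11 to 2.23, adjusted p = 0.168). CD11b- replicates 1 and 2, the higher in citrin, also held the most Mpo, a granule enzyme (5803 and 3948 CPM, against 1449 and 412 CPM in replicates 3 and 4). Without this pair, left out after the data were seen, citrin was called higher (log2 2.09, adjusted p = 0.0235, up to 0.367 over the alternatives), as was Slc25a28 (log2 2.89, adjusted p = 0.0471). The pair held the highest CD11b- values of both genes, so leaving it out raised both folds by construction, and these calls support no difference. It also had the highest basophil and mast cell sums of CD11b- (4543 and 2503 CPM, against 462 and 257 CPM). Per exon length Slc25a12 was 80.3% to 90.6% of the aralar-citrin pair in CD11b+ and 56.9% to 88.3% in CD11b-, ranges that overlap.

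The other shuttle carrier, Slc25a11, which exchanges malate and 2-oxoglutarate, was at 118 ± 14.0 CPM and 106 ± 4.90 CPM (SD, n = 4, log2 0.19, 95% interval -0.14 to 0.52). It shares part of its locus with Rnf167, which had 195 to 225 CPM in CD11b+ and 253 to 434 CPM in CD11b- libraries, and reads of the shared part cannot be told apart without strand. The citrate carrier Slc25a1, the dicarboxylate carrier Slc25a10 and the glutamate carrier Slc25a22 were not called either, with group means from 6.08 to 46.6 CPM and adjusted p from 0.285 to 0.508.

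Of 9 carriers of cofactors and pyrimidine nucleotides 2 were lower and 7 were not called (median log2 0.08). The called share of 22.2% stood beside 29.7% of all genes, and the share called lower beside 15.0%. Slc25a51, the NAD+ importer of the matrix, measured 69.9, 44.8, 81.4 and 95.4 CPM over the CD11b+ libraries and 824, 554, 766 and 592 CPM over the CD11b- libraries. With no overlap it was 9.19-fold lower in CD11b+ (log2 -3.20, SE 0.26, adjusted p = 1.45e-05). Slc25a42, the coenzyme A carrier whose upstream bases are printed above, gave 1.94, 0.532, 1.81 and 2.09 CPM with CD11b+ and 31.1, 19.6, 12.8 and 26.5 CPM with CD11b-. It was 13.6-fold lower (log2 -3.76, SE 0.57, adjusted p = 0.000758), and low in CD11b+ throughout. Only 3 CD11b+ libraries reached 1 CPM, so the gene met the level rule only with its CD11b- libraries.

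Slc25a17, which sits in peroxisomes and carries coenzyme A and related cofactors, was at 152 ± 24.1 and 97.1 ± 37.4 CPM (SD, n = 4, log2 0.69, adjusted p = 0.0558). CD11b- replicate 4 stood at 151 CPM, the highest of CD11b- and within the CD11b+ range. Without this library Slc25a17 was called higher, but leaving out the highest value raised the fold by construction. The gene was also called higher with DESeq2, limma and the totals without the 20 most abundant genes. Over the alternatives its adjusted p ran from 0.00319 to 0.273. The S-adenosylmethionine carrier Slc25a26 passed the level rule through CD11b+ alone, with 1.02 to 1.89 CPM there and 0.0310 to 0.947 CPM in CD11b- (adjusted p = 0.211). Its gene model overlaps that of Lrig1, and reads of the shared part cannot be told apart without strand. Lrig1 had 5.32 and 13.4 CPM in CD11b- replicates 3 and 4, which held the lowest and highest CD11b- values of Slc25a26. In all other libraries Lrig1 had at most 0.063 CPM.

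Pyrimidine nucleotide carriers were scarce. Slc25a36 held 23.1, 24.6, 24.4 and 9.56 CPM for CD11b+ and 11.7, 9.81, 4.70 and 14.5 CPM for CD11b-, a log2 fold change of 1.07 with an interval from 0.02 to 2.11 (adjusted p = 0.122). Slc25a33 had 5.96, 0, 0 and 1.20 CPM and 14.5, 3.19, 4.73 and 4.01 CPM (log2 -1.82, 95% interval -5.72 to 2.08, adjusted p = 0.500). Without CD11b+ replicate 1 the log2 value was -4.00, also not called (adjusted p = 0.205). Per exon length Slc25a36 was 43.3% to 100% of this pair in CD11b+ and 13.7% to 41.6% in CD11b-, with Slc25a33 at 0 in CD11b+ replicates 2 and 3. The folate and FAD carrier Slc25a32 (adjusted p = 0.931) and Slc25a16 (adjusted p = 0.547) were not called.

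Of 6 carriers of amino acids and acylcarnitine, 1 was lower, 1 higher and 4 were not called. Their called share of 33.3% lay near the 29.7% of all genes. Slc25a44, which imports branched-chain amino acids, showed 24.1, 21.2, 32.6 and 39.7 CPM among CD11b+ and 92.4, 121.8, 94.1 and 78.0 CPM among CD11b- libraries. The groups did not overlap, and CD11b+ was 3.21-fold lower (log2 -1.68, SE 0.25, adjusted p = 0.000616). Slc25a20, the carnitine/acylcarnitine carrier of fatty acid oxidation, lay at 33.4, 34.0, 35.7 and 49.0 CPM among CD11b+ and 24.0, 21.6, 12.4 and 23.2 CPM among CD11b- libraries, with no overlap. It was 1.94-fold higher in CD11b+ (log2 0.96, SE 0.28, adjusted p = 0.0260). This call was the least firm of the 10: it was lost without CD11b+ replicate 3 or 4 (adjusted p = 0.0566 and 0.0842) and without the Mpo-high pair (adjusted p = 0.0544), with 0.00547 as the lowest value over the alternatives.

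Slc25a29, a carrier of basic amino acids, had the highest fitted fold of the family without passing the test. Its CD11b+ libraries were close together at 22.9, 22.4, 26.3 and 18.1 CPM, while CD11b- had 0, 0.427, 6.30 and 3.46 CPM. All CD11b- libraries were lower, but they differed widely among themselves (log2 3.12, SE 1.24, adjusted p = 0.0907). It was called without CD11b- replicate 1, without CD11b- replicate 3, without the Mpo-high pair and with DESeq2 or limma, with adjusted p from 0.00184 to 0.158 over the alternatives. CD11b- replicate 3 held the highest CD11b- value, so leaving it out raised the fold by construction. The ornithine carriers Slc25a15 and Slc25a2, and Slc25a45, were not called (adjusted p from 0.502 to 0.957). Neither were the uncoupling-protein-like Slc25a14 and Slc25a30, nor Slc25a46, an outer membrane protein that shapes mitochondria, Slc25a35 and Slc25a53 (adjusted p from 0.207 to 0.885). Of these last 5, 0 had an unadjusted p under 0.05 by edgeR, and DESeq2 and limma also called 0. The gene model of Slc25a53 overlaps that of Zcchc18, which had 6.91 to 22.6 CPM in CD11b- and at most 2.48 CPM in CD11b+ libraries.

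The level rule left out 10 of the 47 genes: Slc25a18, Slc25a23, Slc25a27, Slc25a31, Slc25a34, Slc25a41, Slc25a43, Slc25a47, Slc25a48 and Slc25a54. Only Slc25a31, the ADP/ATP carrier of the male germ line, had no count in any library. Of those just outside, Slc25a43 reached 1 CPM in 3 libraries and at most 4.78 CPM, and Slc25a47 in 3 libraries and at most 5.03 CPM. Just inside, Slc25a35 reached it in 4 libraries and at most 4.65 CPM, and Slc25a26 in 4. In all, 24 of the 37 carriers had at least 1 CPM in all 8 libraries, 7 in 4 CD11b+ but fewer CD11b- libraries, 3 in 4 CD11b- but fewer CD11b+ libraries (Slc25a21, Slc25a33 and Slc25a42) and 3 in fewer than 4 of each sort (Slc25a2, Slc25a35 and Slc25a40). A carrier that passed only through the sort where it is high had to differ, so these counts support no difference.

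Summed over the 37 carriers, CD11b+ libraries held 2367 ± 189 CPM and CD11b- libraries 6149 ± 455 CPM (SD, n = 4). Slc25a37, Slc25a39 and Slc25a51 made most of the gap: without these 3 the sums were 1906 ± 157 and 2159 ± 221 CPM. Without all 10 called genes they were 1529 ± 125 and 1415 ± 166 CPM. On a per-length scale (CPM per kb of exon), Slc25a5 was first in CD11b+ at 385 and second in CD11b- at 363, below Slc25a39 at 604. Slc25a37 ranked 11 in CD11b+ (14.6) and 3 in CD11b- (273), and Slc25a38 ranked 18 (7.67) and 4 (130).

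Slc25a5 took 42.5% to 48.8% of the per-length level of the 37 carriers for CD11b+ and 18.1% to 22.4% for CD11b-. Slc25a37, Slc25a38 and Slc25a39 together took 14.2% to 16.1% and 51.1% to 60.2%. These are shares of a sum, and the CPM of Slc25a5 itself overlapped between the sorts.

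**Figure D3:**
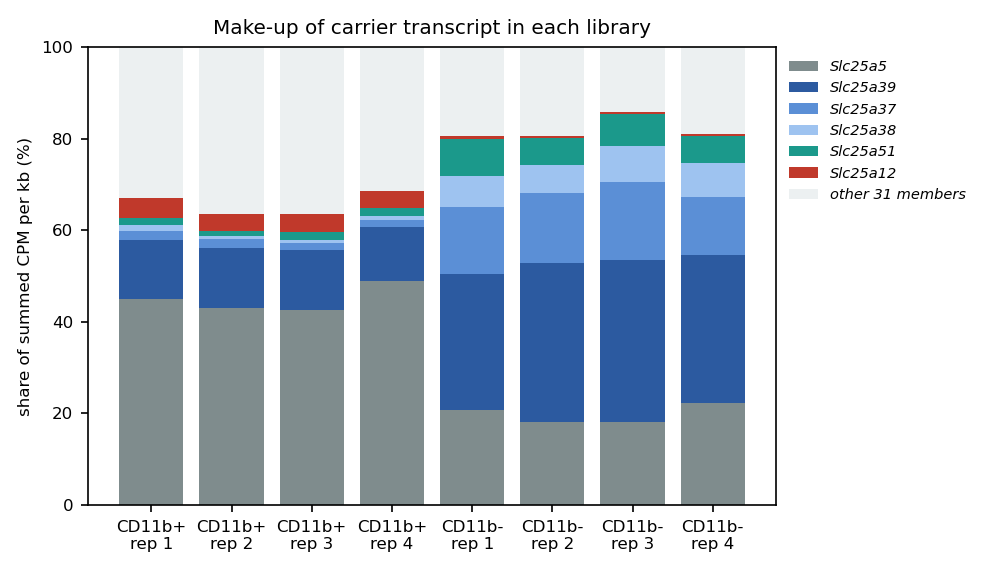
Share of the summed level per exon length (CPM per kb) taken by 6 carriers and by the remaining 31 in each of the 8 libraries, in percent. Slc25a37, Slc25a38 and Slc25a39 together take at most 16.1% in CD11b+ libraries and at least 51.1% in CD11b- libraries.

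Other mitochondrial genes were read from lists chosen with earlier results of these data known. Carriers with other symbols split: the uncoupling protein Ucp2 was 7.70-fold lower in CD11b+ (92.2 ± 7.64 against 726 ± 293 CPM, adjusted p = 4.14e-05), while Mtch1, a carrier-like protein of the outer membrane, was 1.62-fold higher (adjusted p = 0.00433) and Mtch2 was not called (adjusted p = 0.172). Ucp2 was at 84 to 102 CPM in all CD11b+ libraries and at 452, 553, 790 and 1110 CPM in CD11b- replicates 1 to 4.

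The import machinery that inserts carriers into the inner membrane was also read. Of 12 tested genes 0 passed edgeR, with 2 at an unadjusted p under 0.05, and DESeq2 and limma also called 0. Without CD11b- replicate 1, and without the Mpo-high pair, 1 was called higher. The called share of 0% stood beside 29.7% of all genes, and the median log2 fold change was 0.00. Timm22, the insertion channel, was at 48.5 ± 13.2 and 50.7 ± 15.0 CPM (SD, n = 4, adjusted p = 0.967). Of 46 respiratory chain and ATP synthase subunits, 5 were higher and 11 lower (median log2 -0.18), from Ndufb3 of complex I at 1.88-fold higher (adjusted p = 0.00952) to Ndufb9 of the same complex at 2.41-fold lower (adjusted p = 0.000373). The called share of 34.8% stood beside 29.7% of all genes, and with totals that leave out the 20 most abundant genes 8 subunits were higher and 7 lower. Of 22 malate-aspartate shuttle and tricarboxylic acid cycle genes, 2 were higher and 5 lower (median log2 -0.02), a called share of 31.8%, near that of all genes. The balance turned to 4 higher and 3 lower with the reduced totals, and was 3 and 3 without CD11b- replicate 3 and 0 and 5 without CD11b+ replicate 4. The shuttle enzymes Mdh1, Mdh2, Got1 and Got2 were not called (adjusted p from 0.351 to 0.591), whereas pyruvate carboxylase, Pcx, which makes oxaloacetate, was 26.0-fold lower in CD11b+ at 3.75 ± 1.43 against 101 ± 27.1 CPM (adjusted p = 9.59e-06). The highest fold among called genes of that list was that of isocitrate dehydrogenase Idh2 (1.72-fold, adjusted p = 0.0274).

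Of the heme synthesis enzymes, 8 of 9 were lower in CD11b+ (median log2 -4.05), with Cpox the farthest of these 8 (36.3-fold, adjusted p = 2.75e-06), and Alas1, the housekeeping first enzyme, was 50.9-fold higher (146 ± 20.4 against 2.93 ± 3.10 CPM, adjusted p = 0.00230). Of 14 iron-sulfur cluster and heme partner genes 10 were lower and 0 higher (median log2 -1.29). They ran from Fam210b, which takes part in iron import for heme, at 26.7-fold (adjusted p = 2.66e-06), through Abcb10, a partner of mitoferrin 1, at 11.5-fold (adjusted p = 1.35e-06), to the cluster protein Isca2 at 1.88-fold (adjusted p = 0.000659). The share called lower was 88.9% for the heme enzymes and 71.4% for these partner genes, beside 15.0% of all genes. Of 12 inner membrane transporters outside the SLC25 family, 5 were higher and 1 lower (median log2 0.49). The called share of these transporters was 50.0%, beside 29.7% of all genes, and over the alternatives 4 to 6 were higher and 1 to 2 lower. Among them the sodium/calcium exchanger Slc8b1 was 22.4-fold higher in CD11b+ (70.4 ± 12.7 against 3.20 ± 2.81 CPM, adjusted p = 0.00202) and the calcium uniporter Mcu 8.43-fold (55.0 ± 20.5 against 6.73 ± 3.28 CPM, adjusted p = 0.000422). The pyruvate carrier subunits split, Mpc1 at 2.41-fold higher and Mpc2 at 1.64-fold lower (adjusted p = 0.00291 and 0.00307). With the summed erythroid markers also far lower in CD11b+, the part of red cell precursors in these differences was not tested.

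**Figure D4:**
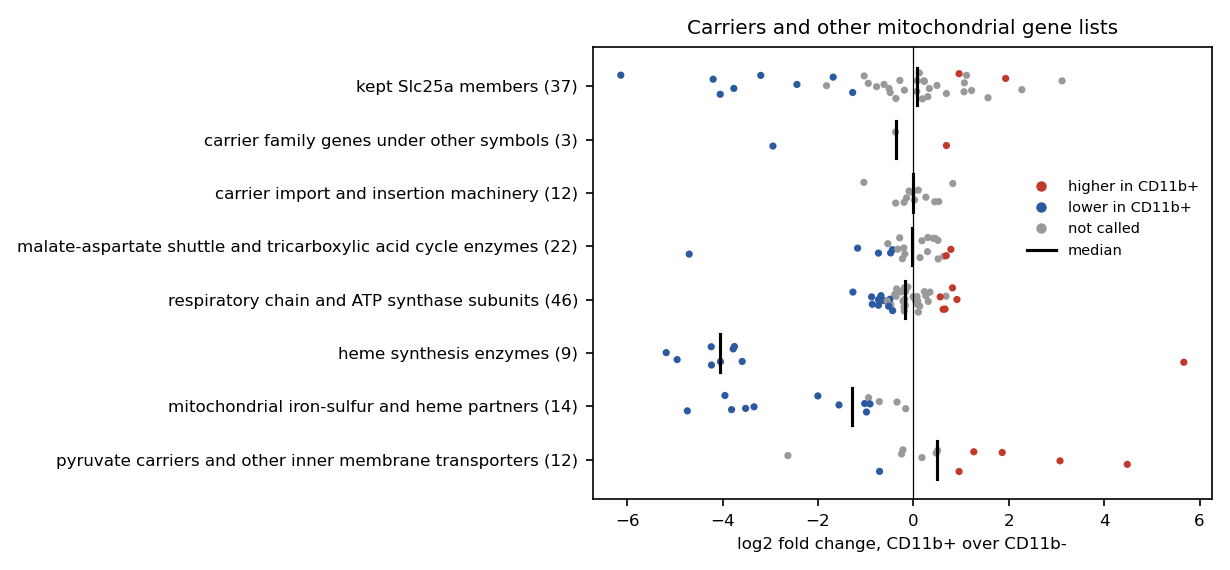
Fitted log2 fold change, CD11b+ over CD11b-, of the 37 carriers and of the tested genes of 7 other mitochondrial lists; each point is a gene, colors give the call and black bars the median. Heme enzymes have a median of -4.05, while the import machinery has a median of 0.00 and no called gene.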

How the data were processed

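Per the values, the 8 deposited per-library files hold whole-number counts per gene symbol, although their names say FPKM, and the table deposited by the authors for all libraries holds CPM. Counts divided by their totals gave back the deposited CPM within 0.0005. The submitters' processing notes list TopHat2, HTSeq 0.10.0, DESeq2 and mm9, with no role or order. The sources used here do not give the annotation, the strand setting or how reads with several mapping places were handled. Of 18817 rows, 27 carry numbers in place of symbols (0.205% to 0.514% of counts) and were left out of library totals and tests. Levels are the authors' CPM.

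Counts were fitted with edgeR 4.0.16 in R 4.3.3 (TMM, filterByExpr with a minimum count of 10 and total of 15, quasi-likelihood test, prior count 0.125, no covariate). P-values were adjusted by Benjamini-Hochberg over 11965 genes, at a threshold of 0.05. Standard errors follow from each fold change and its F statistic. The script was tested on simulated counts. Exon lengths are merged exons of GENCODE M21, found for all 47 carriers, and serve levels between genes only. No coordinates of the files' build were used. Groups follow the labels, and replicates of a sort all differed by more than sampling noise (chi-square over degrees of freedom at least 137). P-values measure the spread between the replicates, which the series text calls biological.

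Carriers, lists and the naming rule were chosen with earlier results of these data known. The rule gave values per library for Slc25a37, Slc25a28, Slc25a38, Slc25a39 and Slc25a40, the 4 highest and 4 lowest called folds, the 4 highest per-length levels and 4 paralog pairs. Other genes were given by group, and 1 carrier that was not called is counted but not reported here. In each list the called genes with the highest and lowest fold were named, and Timm22, Abcb10, Alas1, Mcu, the shuttle enzymes and the pyruvate carrier subunits were named after their values were seen. Alternatives were RLE size factors, no scaling factor, totals without the 20 most abundant genes, DESeq2 1.42.0, other filters, limma 3.58.1 on log2(CPM + 1), the replicate number as a block, each library left out and, added after the data were seen, a fit without CD11b- replicates 1 and 2, which held the most Mpo.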

Additional observations from a re-analysis of the deposited data

Results flagged for a closer look

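In 6 of the 36 groups of 4 libraries tested for the named carriers, 1 library stood apart from the other 3 by Dixon's criterion, which chance meets in about 1 group in 20. In CD11b+ replicate 4, Slc25a5 was at 781 CPM (others 571 to 596), Slc25a20 at 49.0 CPM (others 33.4 to 35.7) and Slc25a36 at 9.56 CPM (others 23.1 to 24.6). In CD11b- replicate 4, Slc25a21 was at 104.4 CPM (others 56.1 to 64.3). In CD11b- replicate 1, Slc25a33 was at 14.5 CPM (others 3.19 to 4.73), and Slc25a23 at 0.456 CPM with the others at 0. A group with 3 libraries at 0 meets the criterion by construction, so Slc25a23 does not count against that chance rate.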

How the results depend on the processing

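The 8 carriers lower in CD11b+ and Slc25a12 were called in the same direction under all 17 alternatives, and Slc25a20 in 13. The number of carriers called lower was 8 throughout except 9 with limma. The number called higher, 2 in the report, was 4 with DESeq2, 5 with limma and 4 without the Mpo-high pair, and ran from 1 to 3 when single libraries were left out (1 without CD11b+ replicate 3 or 4). The log2 fold change of Slc25a21, -6.13 in the report, was -5.18 with limma, whose added CPM of 1 understates changes of low genes. Slc25a40 changed sign without the Mpo-high pair (-0.91), and when single libraries were left out its log2 fold change ran from -0.33 to 0.85, below 0 without CD11b+ replicate 4 (-0.19) and without CD11b- replicate 1 or 2 (-0.33 each). The cause was not tested. Totals without the 20 most abundant genes moved the median log2 fold change of all genes by 0.11.

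The numbers of the replicates pair no animals in the labels. Deviations of same-numbered libraries correlated at 0.02 to 0.06. With the replicate number as a block, 2 carriers were called higher and 8 lower, and of all genes 1585 and 1610, against 1751 and 1798 without it. Of the carriers called higher, Slc25a20 was lost (adjusted p = 0.0549) and Slc25a17 was added. The log2 fold changes of Slc25a40 and Slc25a33, neither called, were 2.42 and -4.64 with the block. Low carriers are limited by depth and by scatter between libraries: 7 of the 37 had a library with no count.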
